A study of Mus musculus with 64 samples.

Results

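The 16 libraries described here, of 64 in the series, came from hk S.E.-activated bone marrow-derived macrophages (BMMs) of mice without the aryl hydrocarbon receptor (AhR) that had been exposed to indole-3-carbinol (I3C) or to the solvent DMSO. They were chosen by their labels as Ahr-/- BMMs with I3C or with DMSO with hk S.E. activation of either 3 h or 20 h, 4 libraries in each of the 4 groups, and no measured value entered the choice. RNA was sequenced from BMMs of 4 mice per genotype, aged 8 to 12 weeks. Wild-type (Ahr+/+) cells came from female C57BL/6JRj mice, whereas the Ahr-/- cells came from a C57BL/6 knockout line that was back-crossed in-house. BMMs were differentiated with L929-conditioned medium and exposed for 6 h to 10 µM I3C, 1 µM benzo[a]pyrene (BaP) or 0.01% DMSO. Activation followed with 10000000 heat-killed Salmonella enterica Serovar Enteritidis per ml (hk S.E.) and lasted 3 h in one set and 20 h in the other. By the stated treatment, I3C and DMSO cells of a time differed only in I3C. All Ahr-/- libraries thus derived from 4 animals of 1 knockout line, whose sex is not given in the sources used here. Libraries with the same replicate number are taken here as cells of 1 mouse, which the labels do not state.

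AhR moves to the nucleus when it binds a ligand and, together with ARNT, occupies the core sequence GCGTG and induces genes such as Cyp1b1, Tiparp, Ahrr and Nqo1. I3C is a breakdown product of glucobrassicin from cruciferous vegetables. In acid it condenses to diindolylmethane and indolocarbazole, of which the latter is a high-affinity AhR ligand. Isothiocyanates and indoles of these plants are also known for acting on the factor NRF2, which drives genes of glutathione synthesis, thioredoxin reduction, NADPH supply and heme breakdown. Ahr-/- BMMs therefore pose the question of which transcripts I3C changes when its receptor is missing.

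Without AhR, the transcripts that passed the test were all lower after I3C. At 3 h p.a. (after hk S.E. administration), 20 of 14537 tested genes (0.138%) were lower with I3C and 0 were higher, at an adjusted p below 0.01 by edgeR's quasi-likelihood test with the mouse as a block. At 20 h, 66 genes (0.454%) were lower and 0 were higher. At an unadjusted p below 0.05, 588 genes were lower (4.04%) and 914 higher at 3 h, and 664 were lower (4.57%) and 582 higher at 20 h. When only the 8 libraries of a time were fitted with the block, 127 of 12245 genes were called at 3 h, 24 of them higher (0.196%) and 103 lower (0.841%), and 479 of 12658 at 20 h, 220 of them higher (1.74%) and 259 lower (2.05%). The absence of higher genes therefore depends on the design. Of those 127 and 479 genes, 19 and 58 were among the 20 and the 66. Without the block, 3 and 30 genes were called. With 1 library left out, the count lay between 5 (without I3C replicate 1) and 38 (without DMSO replicate 1) at 3 h and between 32 (without I3C replicate 3) and 57 (without DMSO replicate 3) at 20 h. Of the 20 genes, 16 were also called at 20 h, which is 80% of the 3 h list and 24.2% of the 20 h list.

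In the fit over all 64 libraries, the called genes were almost all of 2 kinds. Processed pseudogenes, which are copies of spliced mRNAs inserted back into the genome, made up 18 of the 20 genes at 3 h and 36 of the 66 at 20 h. Protein-coding genes that span at least 100 kb from first to last exon made up 1 of the 20 at 3 h (Prkce) and 29 of the 66 at 20 h. RNA polymerase II needs far longer to transcribe such genes than short ones. What remained was the short gene Gm6133 at 3 h and Rab28, which spans 83.2 kb, at 20 h. Of the 11689 tested genes that were neither processed pseudogenes nor long protein-coding genes, 1 was called at each time. These shares depended on the fit. With only the 8 libraries of a time, the 103 lower genes at 3 h held 74 processed pseudogenes, 7 long genes and 22 others. At 20 h, the 259 lower genes held 104, 67 and 88. Of the 24 and 220 higher genes, 1 and 1 were processed pseudogenes and 0 and 5 were long genes.

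Long genes were called mainly at 20 h. Wwox (chr8:114439655-115352708, GRCm38), which encodes a WW domain-containing oxidoreductase at a common fragile site, spans 913 kb. In replicates 1 to 4 its level at 20 h was 8.74, 8.96, 7.54 and 7.07 CPM (counts scaled to a common library size) with DMSO and 4.11, 3.40, 3.67 and 3.12 CPM with I3C. All I3C libraries lay below all DMSO libraries, a difference of −1.17 on the log2 scale (SE 0.13, adjusted p = 1.22e-07). At 3 h, Wwox was at 11.7, 8.24, 7.15 and 8.18 CPM with DMSO and at 6.08, 6.91, 6.05 and 7.95 CPM with I3C. Each mouse had the lower value with I3C but the groups overlapped, and the log2 fold change of −0.36 (SE 0.13) had an adjusted p of 0.298.

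Gmds (chr13:31819579-32338740), the GDP-mannose dehydratase that starts GDP-fucose synthesis, was at 6.52, 7.68, 3.57 and 5.70 CPM with DMSO and at 3.52, 3.08, 1.73 and 1.70 CPM with I3C at 20 h. Replicates 3 and 4 were lower than 1 and 2 in both groups, yet the groups did not overlap, with a log2 fold change of −1.26 (SE 0.16, adjusted p = 2.28e-06). At 3 h, Gmds differed by −0.20 on the log2 scale (adjusted p = 0.694). Ttc28 (chr5:110879803-111289780), a large tetratricopeptide repeat protein gene, was at 1.74, 1.95, 1.95 and 1.32 CPM with DMSO and at 0.704, 0.531, 0.459 and 0.628 CPM with I3C at 20 h. Again no I3C library reached a DMSO library, with a log2 fold change of −1.56 (SE 0.22, adjusted p = 1.19e-05).

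Slc9a9 (chr9:94669909-95230445), an endosomal sodium/proton exchanger gene, was the only gene whose I3C effect differed between the times at an adjusted p below 0.01 (1 of 14537 genes, 0.00688%; 301 genes had an unadjusted p below 0.05). At 3 h it was at 31.4, 28.8, 26.9 and 26.6 CPM with DMSO and at 28.3, 23.2, 21.6 and 19.4 CPM with I3C. At 20 h it was at 1.52, 1.05, 1.03 and 0.681 CPM with DMSO and at 0.430, 0.142, 0.282 and 0.167 CPM with I3C. Its level was thus far lower at 20 h in all libraries, and I3C cells were lower at both times in 4 of 4 mice. The difference at 3 h was −0.31 on the log2 scale (SE 0.10, adjusted p = 0.231), and that at 20 h was −2.06 (SE 0.26, adjusted p = 2.20e-06). The change between the times was −1.76 (SE 0.29, adjusted p = 0.00231), and it was lost in 8 of 28 alternatives, among them the fit without the mouse as a block (adjusted p = 0.115).

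Prkce (chr17:86167785-86657919), the gene of protein kinase C epsilon, was the single long gene called at both times. At 3 h it was at 3.18, 3.75, 4.06 and 4.60 CPM with DMSO and at 1.77, 2.20, 2.47 and 2.77 CPM with I3C. At 20 h it was at 6.90, 5.13, 6.11 and 6.68 CPM with DMSO and at 3.01, 3.97, 2.72 and 3.68 CPM with I3C. The groups did not overlap at either time, with log2 fold changes of −0.75 (SE 0.15, adjusted p = 0.00911) and −0.90 (SE 0.13, adjusted p = 2.02e-05). The 3 h call was lost in 13 of 20 alternatives (adjusted p up to 0.0748), the 20 h call in 0 of 20. A change could also be smaller than this and still be called. Exoc4, a subunit of the exocyst that tethers secretory vesicles, spans 725 kb and was at 40.2, 38.9, 37.2 and 36.7 CPM with DMSO and at 29.8, 30.5, 29.2 and 29.8 CPM with I3C at 20 h. These groups did not overlap, with a log2 fold change of −0.36 (SE 0.07, adjusted p = 0.00118).

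Other long genes that fell at 20 h have roles that range from kinases to nuclear receptors. Esr1, the estrogen receptor alpha gene, was at 1.17, 1.27, 1.10 and 1.27 CPM with DMSO and at 0.391, 0.354, 0.459 and 0.377 CPM with I3C (log2 fold change −1.62, adjusted p = 1.20e-04). Diaph3, a formin that assembles actin filaments, was at 1.84, 2.40, 1.91 and 2.70 CPM with DMSO and at 0.782, 0.496, 0.988 and 0.502 CPM with I3C (−1.76, adjusted p = 1.23e-04). In both of these genes all I3C libraries were below all DMSO libraries. Smyd3 and Lrba, which encode a lysine methyltransferase and a protein of vesicle traffic, fell by 0.82 and 0.60 on the log2 scale, and Pola1, the catalytic subunit of DNA polymerase alpha, fell by 0.97. Prkca, the gene of protein kinase C alpha, fell by 1.93, and the EF-hand gene Efcab11 fell by 1.70 (adjusted p = 0.00896). The calls of Pola1 and Efcab11 were lost in 11 of 20 and 12 of 19 alternatives (adjusted p up to 0.130 and 0.0975).

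The largest fitted changes belonged to genes with very few reads. Immp2l, a subunit of the mitochondrial inner membrane peptidase, had 23, 17, 9 and 10 counts with DMSO and 1, 0, 0 and 1 with I3C at 20 h. The ratio of summed counts, scaled by library size, was 0.0361 with a 95% exact Poisson interval of 0.00428 to 0.136, which covers counting error only. Pard3b, a cell polarity gene, had 68 counts with DMSO and 7 with I3C, a ratio of 0.110 (0.0425 to 0.239). Their fitted log2 fold changes of −4.46 and −3.03 depend on few reads and are given without further ranking.

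**Figure D1:**
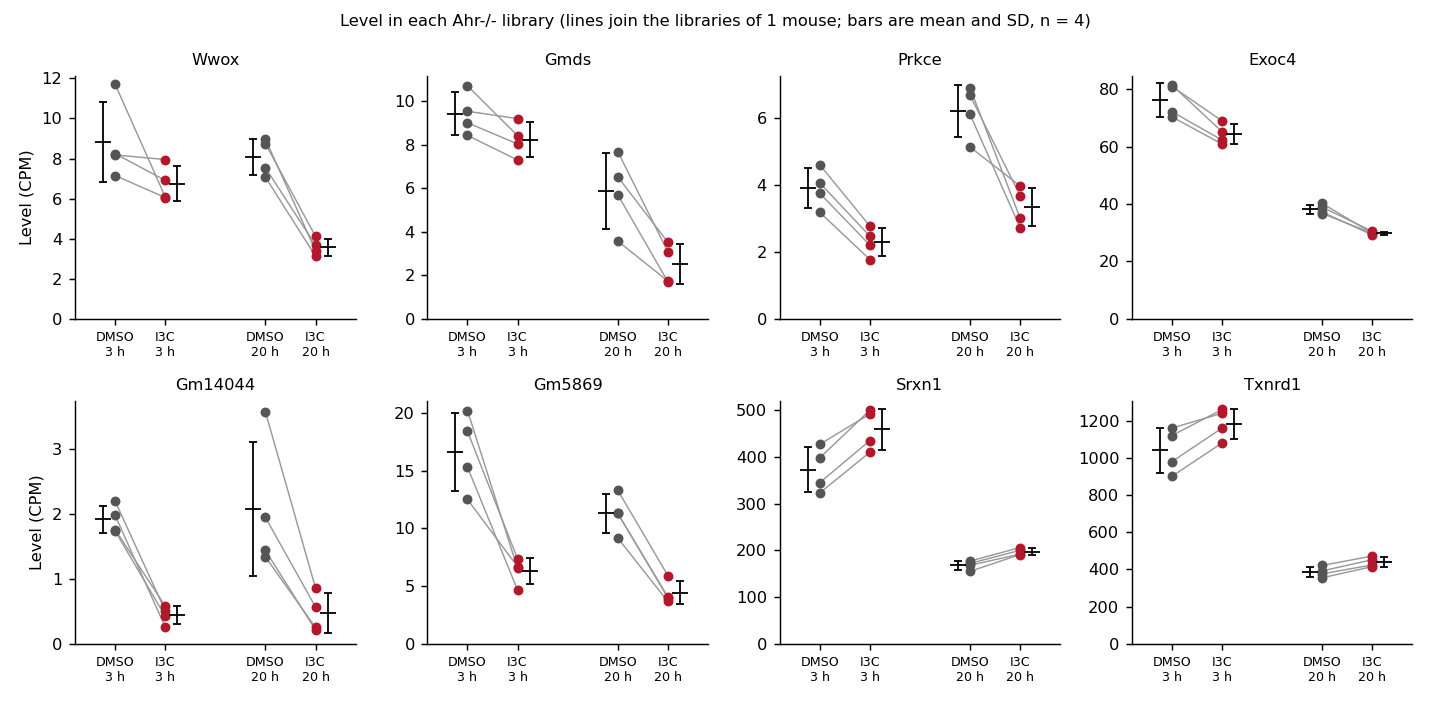
Levels in CPM of 4 long genes (Wwox, Gmds, Prkce, Exoc4), 2 processed pseudogenes (Gm14044, Gm5869) and 2 NRF2 target genes (Srxn1, Txnrd1) in every Ahr-/- library with DMSO or I3C at 3 h and 20 h p.a., where lines join libraries of the same mouse and bars give mean ± SD (n = 4). Prkce, Gm14044 and Gm5869 are lower with I3C in all 4 mice at both times, the Wwox and Gmds groups overlap at 3 h and not at 20 h, and the NRF2 target genes are higher with I3C in all 4 mice without passing the threshold.

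Gene span went with the I3C effect over all protein-coding genes and not only over the called ones. At 20 h the median log2 fold change was 0.07 for 2915 genes under 10 kb, 0.03 for 4065 genes of 10 to 30 kb, −0.02 for 3583 genes of 30 to 100 kb, −0.06 for 1231 genes of 100 to 300 kb and −0.21 for 221 genes of at least 300 kb. The corresponding medians at 3 h were 0.10, 0.06, 0.00, −0.04 and −0.13. The medians of all tested genes were 0.00 and 0.02. Thus the medians fell from the shortest to the longest genes at both times. Of the 221 longest genes, 82.8% had a negative log2 fold change at 20 h and 83.3% at 3 h. At an unadjusted p below 0.05, 87 of them were lower at 20 h and 36 at 3 h. At 20 h, 25 of the 221 genes of at least 300 kb were called, 4 of the 1231 genes of 100 to 300 kb and 1 of the remaining protein-coding genes. All 4 I3C libraries lay below all 4 DMSO libraries in 18.1% of the longest genes at 20 h, against 1.73% of all tested genes, and in 6.33% at 3 h, against 1.88%.

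Processed pseudogenes made up most of the genes called in the fit over all 64 libraries. For 3 of those called at both times, a stretch of 100 bases is given for pseudogene and matched parent gene, as reads can only be told apart where both differ. Each is the stretch of the parent's coding part with the most differences, so it is not typical of the whole pseudogene. Bases that differ are in capitals, coordinates are GRCm38, and the parent's sequence is from its coding sequence.
Gm14044 (chr2:130385177-130385276, minus strand): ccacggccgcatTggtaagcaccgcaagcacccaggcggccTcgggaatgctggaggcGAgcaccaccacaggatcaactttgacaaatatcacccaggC
Rpl27a, same stretch: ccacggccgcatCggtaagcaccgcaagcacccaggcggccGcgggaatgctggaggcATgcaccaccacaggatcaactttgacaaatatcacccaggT
Gm10054 (chr12:17233810-17233909, plus strand): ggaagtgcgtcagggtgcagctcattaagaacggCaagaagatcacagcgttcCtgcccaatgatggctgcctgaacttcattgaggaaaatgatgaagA
Rps23, same stretch: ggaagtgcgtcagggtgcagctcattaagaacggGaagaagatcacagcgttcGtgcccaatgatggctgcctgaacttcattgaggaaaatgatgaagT
Gm5869 (chr5:86997168-86997267, plus strand): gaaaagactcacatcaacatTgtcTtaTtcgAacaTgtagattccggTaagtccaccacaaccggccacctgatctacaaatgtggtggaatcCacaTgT
Eef1a1, same stretch: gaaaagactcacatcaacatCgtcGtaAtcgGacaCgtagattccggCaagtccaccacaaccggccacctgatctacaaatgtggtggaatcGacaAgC
The stretches differ at 5, 3 and 9 bases, while identity over the whole alignment was 98.2% for Gm14044, 98.6% for Gm10054 and 96.5% for Gm5869. Rpl27a and Rps23 encode ribosomal proteins and Eef1a1 encodes the elongation factor that brings aminoacyl-tRNA to the ribosome.

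Gm14044 was at 1.74, 2.20, 1.76 and 1.98 CPM with DMSO and at 0.424, 0.508, 0.581 and 0.256 CPM with I3C at 3 h. At 20 h it was at 3.58, 1.95, 1.44 and 1.34 CPM with DMSO and at 0.860, 0.567, 0.212 and 0.251 CPM with I3C. I3C libraries were below DMSO libraries without overlap at both times, with log2 fold changes of −2.11 (SE 0.33, adjusted p = 2.18e-04) and −2.16 (SE 0.29, adjusted p = 2.93e-06). Its parent Rpl27a was at 420, 415, 324 and 342 CPM with DMSO and at 474, 525, 396 and 383 CPM with I3C at 3 h, and at 441, 424, 226 and 247 CPM and 473, 451, 252 and 256 CPM at 20 h. Each mouse had the higher Rpl27a level with I3C, opposite to the pseudogene, with log2 fold changes of 0.24 and 0.10 that were not called.

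Gm5869 was at 15.3, 20.2, 18.4 and 12.5 CPM with DMSO and at 4.66, 6.53, 7.36 and 6.67 CPM with I3C at 3 h. At 20 h the values were 13.3, 11.3, 11.3 and 9.16 CPM with DMSO and 5.91, 4.07, 3.99 and 3.66 CPM with I3C. The groups did not overlap, and the log2 fold changes of −1.38 (SE 0.19, adjusted p = 2.62e-05) and −1.36 (SE 0.18, adjusted p = 4.66e-06) were alike at both times. Eef1a1, in contrast, differed by 0.13 and 0.03. Gm10054 was at 8.04, 8.28, 8.69 and 7.28 CPM with DMSO and at 3.53, 3.14, 3.29 and 2.67 CPM with I3C at 3 h, and fell by 1.37 (adjusted p = 3.68e-04) and by 1.35 (adjusted p = 2.82e-05), while Rps23 differed by 0.21 and 0.06. CT485613.4, a copy of Rpl7, was at 2.93, 3.89, 2.60 and 3.19 CPM with DMSO and at 0.424, 0.932, 1.02 and 0.718 CPM with I3C at 3 h and fell by 1.97 (adjusted p = 7.19e-05), and at 20 h by 1.60 (adjusted p = 1.19e-04). All 4 copies therefore fell below their DMSO range at 3 h.

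Gm9130, Gm16335 and Rpl21-ps6 fell by 1.97, 1.84 and 1.63 at 3 h and by 2.03, 1.77 and 1.71 at 20 h. Gm8652, a copy of Hnrnpa1, and Gm7783, a copy of Rpl7a, had 64 and 126 counts with DMSO and 6 and 18 with I3C at 20 h, ratios of 0.0999 and 0.152. Gm6133, annotated as protein-coding but only 0.948 kb long, was at 2.62, 3.11, 2.87 and 2.94 CPM with DMSO and at 1.06, 0.466, 1.40 and 0.615 CPM with I3C at 3 h, without overlap. The fall amounted to −1.75 on the log2 scale (SE 0.36, adjusted p = 0.00887), and at 20 h the difference was −1.30 (adjusted p = 0.0244). Rab28, a small GTPase gene, was at 19.9, 21.2, 24.7 and 24 CPM with DMSO and at 15.1, 16.3, 19.7 and 21.3 CPM with I3C at 20 h. Although these ranges overlapped, it was lower in all 4 mice, by 0.31 on the log2 scale (adjusted p = 0.00660). This call was lost in 10 of 20 alternatives, with an adjusted p of up to 0.952, and that of Gm6133 at 3 h in 9 of 20 (up to 0.109).

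The 1396 tested processed pseudogenes as a whole had median log2 fold changes of −0.34 at 3 h and −0.24 at 20 h, and 73.1% and 72.1% of them were negative. At an unadjusted p below 0.05, 380 were lower and 32 higher at 3 h, and 332 were lower and 12 higher at 20 h. The 4 I3C libraries lay below the 4 DMSO libraries in 13.3% and 8.09% of them, against 1.88% and 1.73% of all tested genes. For 1370 pseudogenes with a matched parent among the tested genes, the parents had medians of 0.13 and 0.03. For the 39 pseudogenes called at either time, the medians were −1.38 and −1.36, whereas the parents, 34 genes in all, had medians of 0.16 and 0.03 and none of them was called. Parents of 22 of the 39 (56.4%) were genes of cytosolic ribosomal proteins, as were those of 442 of the 1370 (32.3%). The 84 ribosomal protein genes themselves had medians of 0.16 and 0.07. Against BaP libraries in place of DMSO libraries, the 1370 matched pseudogenes had medians of only −0.06 and −0.07 with I3C, and their parents of 0.03 and 0.02.

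**Figure D2:**
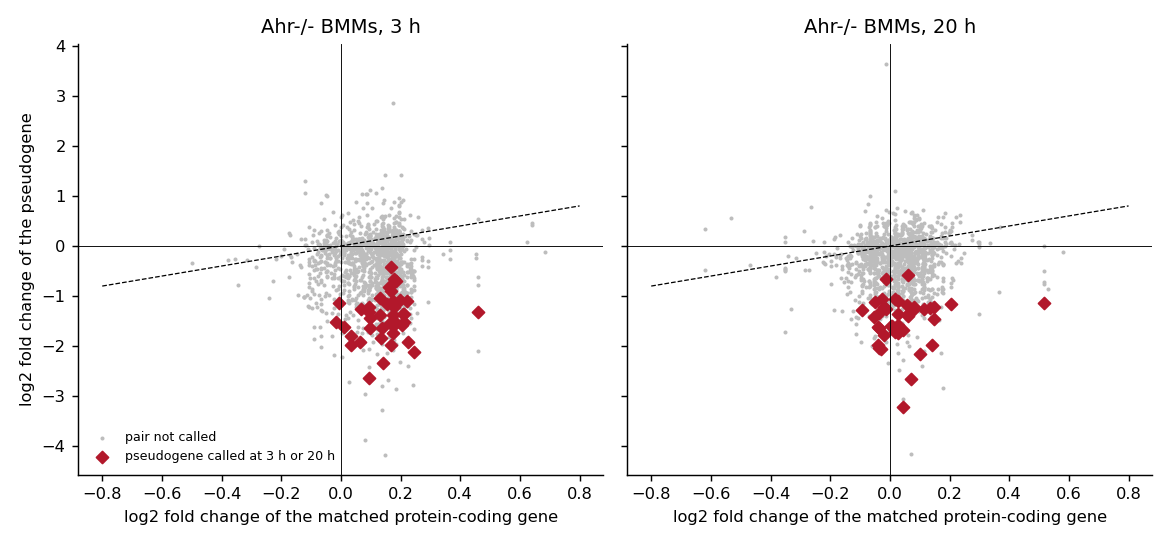
Log2 fold change of I3C against DMSO in Ahr-/- BMMs for processed pseudogenes (vertical axis) and for their matched parent genes (horizontal axis) at 3 h and 20 h p.a., 1 point per pair, with pairs of called pseudogenes marked. Called pseudogenes lie between −0.42 and −3.22. Their parents lie between −0.02 and 0.46 at 3 h and between −0.09 and 0.51 at 20 h.

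Reads from a pseudogene and from its parent are alike over much of their length, so these pseudogene values are uncertain in origin. Aligned identity to the parent had a median of 96.9% (88.9 to 99.3) in the 39 called pseudogenes and of 97.7% in all pairs. Of the 100-base windows of a called pseudogene, a median of 5.6% were identical to the parent, against 13.6% over the tested pseudogenes. Reads that aligned to several places were not counted, and they made up 13.5 to 15.6% of the reads. That share was lower with I3C in 4 of 4 mice at 3 h and in 3 of 4 at 20 h. Only 7 of the 39 (17.9%) lay within the span of a protein-coding gene, against 25.8% of tested pseudogenes.

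Other library measures moved together with these changes. Reads in no annotated exon fell from 5.28% ± 0.431 (SD, n = 4) with DMSO to 4.68% ± 0.366 with I3C at 3 h and from 4.31% ± 0.341 to 3.80% ± 0.342 at 20 h, and counts of mitochondrial genes fell from 1.11% ± 0.260 to 0.914% ± 0.225 and from 0.925% ± 0.302 to 0.803% ± 0.278. Both were lower with I3C in 4 of 4 mice at both times. With BaP, both were lower than with DMSO in 4 of 4 mice at 3 h and in 3 of 4 at 20 h. Processed pseudogenes took 0.473% of counts with DMSO and 0.423% with I3C at 3 h, and 0.495% and 0.444% at 20 h. The part of unassigned and mitochondrial reads in the results was not tested.

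Totals per library lay between 17568542 and 50644601 counts on genes. The summed level of 18 macrophage genes was 31800 to 46200 CPM. Genes of neutrophils summed to 182 to 268 CPM at 3 h and to 1490 to 3120 CPM at 20 h, led by Lcn2 and Csf3r, which activated macrophages also express, while Ly6g, Mpo and Elane stayed under 0.1 CPM. In bulk RNA, fewer cells of a type and less RNA per cell cannot be told apart. Mitochondrial shares were lower in replicates 1 and 2 (0.541 to 0.890%) than in replicates 3 and 4 (0.987 to 1.38%), and Serpinb2, which encodes plasminogen activator inhibitor 2, was at 5 CPM or more in replicates 1 and 2 but at 0 to 0.0513 CPM in replicates 3 and 4. The mice of the Ahr-/- group thus fell into 2 pairs, which the block takes up. The I3C library of replicate 2 at 3 h carries an identifier of another series than the other Ahr-/- libraries of that time. All activated Ahr-/- libraries of 20 h carry identifiers of 1 series, which no activated Ahr-/- library of 3 h has. Series and time thus go together in these libraries. With the identifier series as a covariate, 20 genes were called at 3 h and 63 at 20 h, of which 17 and 61 were called without it. All 20 were then processed pseudogenes, and neither Prkce nor Gm6133 was among them.

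Wild-type BMMs, which share no library with the Ahr-/- BMMs, give independent values for the same genes. Of the 20 genes called at 3 h, all 20 were negative with I3C in Ahr+/+ BMMs and 17 were called lower, with a median of −1.72 against −1.60 in Ahr-/- BMMs. Of the 66 called at 20 h, all 66 were negative and 50 were called, with a median of −1.48 against −1.26. In Ahr+/+ BMMs, 57 genes (0.392%) were called at 3 h, 48 lower (0.33%) and 9 higher (0.0619%), and 147 (1.01%) at 20 h, 115 lower (0.791%) and 32 higher (0.22%). The shared genes thus made up 85% of the Ahr-/- and 29.8% of the Ahr+/+ list at 3 h and 75.8% and 34% at 20 h. At 20 h Gm14044 fell by 2.90 in Ahr+/+ and by 2.16 in Ahr-/- BMMs, Wwox by 1.31 and 1.17, Gmds by 1.72 and 1.26, and Prkce by 0.96 and 0.90. In a description across genes, which are not independent replicates, Pearson's r between the genotypes was 0.586 over 1396 processed pseudogenes and 0.588 over 221 genes of at least 300 kb, against 0.324 over all 14537 genes at 20 h. At 3 h it was 0.615, 0.422 and 0.222.

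**Figure D3:**
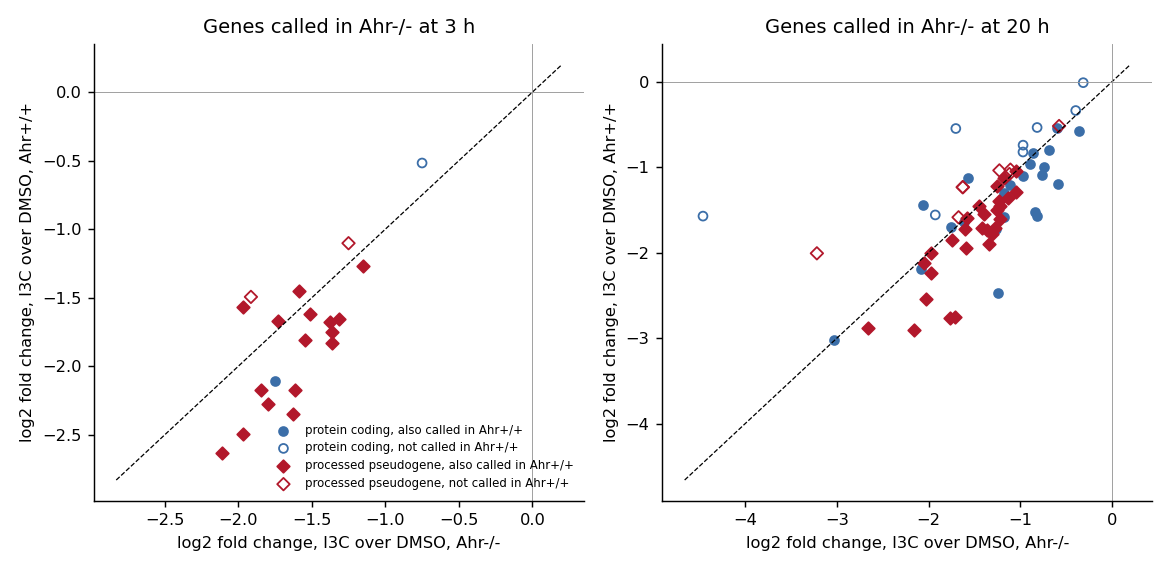
Log2 fold change of I3C against DMSO in Ahr-/- BMMs (horizontal axis) and in Ahr+/+ BMMs (vertical axis) for the genes called in Ahr-/- BMMs at 3 h and 20 h p.a., 1 point per gene. All points lie below 0 on both axes, most of them near the dashed line of equal change.

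The test of the difference between the genotypes called 0 genes at 3 h by edgeR (314 had an unadjusted p below 0.05) and 4 genes (0.0275%) at 20 h (813 had an unadjusted p below 0.05). None of the 4 was among the 66, and all of them were higher with I3C in Ahr+/+ BMMs. Ahrr, the AhR repressor that AhR itself induces, was at 0.728, 0.787, 0.626 and 0.810 CPM with DMSO and at 0.469, 0.531, 0.847 and 0.837 CPM with I3C in Ahr-/- BMMs, so that the groups overlapped. In Ahr+/+ BMMs the I3C effect was 1.52 on the log2 scale, and the difference was −1.64 (SE 0.28, adjusted p = 0.00167). Serpinb2 was at 45.6, 35.2, 0 and 0 CPM with DMSO and at 33.1, 26.5, 0 and 0 CPM with I3C, a difference from Ahr+/+ of −2.51 (adjusted p = 9.75e-07) that rests on the 2 Ahr-/- mice that express it. Mmp8, neutrophil collagenase, was at 1.20, 0.637, 0.699 and 0.957 CPM with DMSO and at 0.743, 0.460, 0.671 and 0.565 CPM with I3C, a difference of −1.99 (adjusted p = 4.86e-06). Acpp, an acid phosphatase gene, differed by −0.94 (adjusted p = 0.00555), a call lost in 15 of 27 alternatives. All of these calls were lost without the mouse as a block, where 0 genes were called by edgeR.

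In the fit over all 64 libraries, AhR targets showed no called change in Ahr-/- BMMs. Only 0.138% and 0.454% of all tested genes were called at 3 h and 20 h. Of 14 listed genes 9 could be tested, and their median log2 fold changes were 0.05 at 3 h and −0.12 at 20 h. An unadjusted p below 0.05 was found for 1 and 0 of them, against 10.3% and 8.57% of all tested genes. When the 8 libraries of a time were fitted alone, 0 of 6 AhR targets were called at 3 h. At 20 h, 1 of 9 (11.1%) was called lower, against 2.05% of all genes. Cyp1b1 was too low for testing, with 0 counts in each DMSO library and 0 to 2 with I3C at 3 h and 0 to 4 at 20 h. Nqo1, a quinone reductase that both AhR and NRF2 induce, was at 4.30, 4.39, 6.62 and 5.37 CPM with DMSO and at 5.23, 5.59, 8.42 and 7.08 CPM with I3C at 3 h. It was higher in each mouse but the groups overlapped, and the log2 fold changes were 0.34 (adjusted p = 0.456) at 3 h and 0.07 (adjusted p = 0.920) at 20 h, against 0.69 and 1.11 in Ahr+/+ BMMs. Tiparp differed by −0.18 and −0.15. Reads of the Ahr gene itself were at 12.8 to 13.1 CPM with DMSO and 10.7 to 14.3 CPM with I3C at 3 h, which does not tell whether protein is made.

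The promoters of called long genes were searched for GCGTG on both strands. Windows of 250 bases before the start site, from RefSeq on GRCm38.p6, are given for 3 of them, with matches in capitals (CACGC is a match on the other strand), since the called genes include such without and with the AhR core.
Slc9a9 (chr9:94669642-94669891, plus strand): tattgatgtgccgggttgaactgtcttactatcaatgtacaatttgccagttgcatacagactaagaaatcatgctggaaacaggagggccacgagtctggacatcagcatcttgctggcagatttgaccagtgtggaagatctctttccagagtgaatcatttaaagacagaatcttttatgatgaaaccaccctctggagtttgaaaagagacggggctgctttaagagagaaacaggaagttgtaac
Gmds (chr13:32338545-32338794, minus strand): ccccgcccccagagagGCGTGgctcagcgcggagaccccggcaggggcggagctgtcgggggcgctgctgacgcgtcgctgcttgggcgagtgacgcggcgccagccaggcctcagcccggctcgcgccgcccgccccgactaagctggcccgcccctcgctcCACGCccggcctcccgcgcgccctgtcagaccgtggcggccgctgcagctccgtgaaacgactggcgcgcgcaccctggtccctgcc
Ttc28 (chr5:110879553-110879802, plus strand): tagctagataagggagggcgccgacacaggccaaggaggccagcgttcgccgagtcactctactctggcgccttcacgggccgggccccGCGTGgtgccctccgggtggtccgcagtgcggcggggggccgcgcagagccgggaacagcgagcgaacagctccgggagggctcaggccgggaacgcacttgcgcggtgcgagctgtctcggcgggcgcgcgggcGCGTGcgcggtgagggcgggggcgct
Slc9a9 holds 0 matches, Gmds 2 and Ttc28 2. Of 30 protein-coding genes called at 20 h, 23 had such windows, and GCGTG was found in 9 of their 26 windows (34.6%). The shares were 49.9% over windows of protein-coding genes tested, 46.9% over those of long genes and 32.4% over all windows. The core TGACNNNGC of the NRF2 binding site was found in 15.4% of the called genes' windows, in 14.3% of those of protein-coding genes tested and in 31.2% of those of NRF2 target genes.

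Among the listed pathways, genes driven by NRF2 had the highest median with I3C at both times, without any member passing the threshold. Of 30 listed genes 29 were tested, and their median log2 fold change was 0.19 at both times, against 0.02 and 0.00 over all tested genes. At 3 h, 28 of the 29 were positive and 17 had an unadjusted p below 0.05, against 6.29% of all genes in that direction. At 20 h, 27 were positive and 12 had an unadjusted p below 0.05, against 4% of all genes. Srxn1, the sulfiredoxin that restores oxidized peroxiredoxins, was at 323, 345, 398 and 427 CPM with DMSO and at 410, 435, 500 and 492 CPM with I3C at 3 h, and at 168, 172, 155 and 177 CPM and 192, 200, 191 and 206 CPM at 20 h. It was higher in each mouse, with overlap at 3 h and without it at 20 h, and the log2 fold changes were 0.30 (SE 0.08, adjusted p = 0.0524) and 0.23 (adjusted p = 0.190). Txnrd1, cytosolic thioredoxin reductase, was at 901, 980, 1120 and 1160 CPM with DMSO and at 1080, 1160, 1260 and 1240 CPM with I3C at 3 h. It was higher in each mouse, by 0.19 (SE 0.05, adjusted p = 0.0538), and by 0.19 (adjusted p = 0.0380) at 20 h.

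Blvrb, a biliverdin reductase gene, was at 183, 196, 155 and 145 CPM with DMSO and at 246, 239, 197 and 194 CPM with I3C at 20 h. It was higher in each mouse, with a log2 fold change of 0.37 (SE 0.09, adjusted p = 0.0344), and of 0.33 (adjusted p = 0.123) at 3 h. Pgd and G6pdx, dehydrogenases of the pentose phosphate pathway that supply NADPH, differed by 0.28 (adjusted p = 0.0853) and 0.22 (adjusted p = 0.0900) at 3 h. Hmox1, heme oxygenase 1, was at 206, 222, 207 and 223 CPM with DMSO and at 252, 299, 261 and 248 CPM with I3C at 3 h, without overlap. All 4 I3C libraries lay above all 4 DMSO libraries in 20.7% of the 29 genes at 3 h and in 6.90% at 20 h, against 2.38% and 1.91% of all tested genes. When the 8 libraries of a comparison were fitted alone with the mouse as a block, 6 of the 29 were called higher at 3 h (20.7%, against 0.196% of 12245 genes), namely Blvrb, Ftl1, Hmox1, Pgd, Slc48a1 and Srxn1. At 20 h, 13 of the 29 were (44.8%, against 1.74% of 12658 genes). Among the members checked in 20 alternatives, few others gave these calls. At 3 h, Blvrb, Hmox1 and Slc48a1 passed in 1 of 20, which is this fit, and Pgd and Srxn1 in 2 of 20. At 20 h, Hmox1, Pgd, Slc48a1 and Srxn1 passed in 1 of 20, Blvrb in 2 and Txnrd1 in 3. With 1 library left out, 0 genes were called higher with I3C than with DMSO at either time. In Ahr+/+ BMMs, 2 and 5 members were called higher and the medians were 0.17 and 0.16. With BaP in Ahr-/- BMMs, against the same DMSO libraries, the medians were 0.11 and 0.07 with 0 members called, and I3C against BaP libraries gave 0.07 and 0.11, also with 0 called.

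Inflammatory genes of the hk S.E. response had no called member in I3C against DMSO. Of all tested genes, 0.138% at 3 h and 0.454% at 20 h were called, and at that share lists of this size would mostly hold none. The 23 cytokine genes had medians of −0.02 at 3 h and −0.16 at 20 h, and 4 were lower at 20 h at an unadjusted p below 0.05, against 4.57% of all tested genes. These were Il12b, a subunit of IL-12 and IL-23, Vegfa, Il1a and Il18, with log2 fold changes of −0.30, −0.26, −0.36 and −0.47. When the 8 libraries at 20 h were fitted alone, 7 of 21 cytokine genes (33.3%) and 5 of 23 chemokine genes (21.7%) were called lower, against 2.05% of all genes. In the same fit, 5 of 23 genes of antigen presentation (21.7%) were called higher, against 1.74% of all genes, namely H2-D1, H2-K1, Psmb10, Tap2 and Tapbp, and 1 was called lower. Of 48 interferon-stimulated genes, 3 (6.25%) were called higher, namely Bst2, Isg15 and Oasl1, and 1 was called lower. The 25 chemokine genes had medians of −0.03 and −0.02, the 48 interferon-stimulated genes of −0.03 and −0.01, and the 23 genes of antigen presentation of 0.08 and 0.10. Against BaP libraries at 20 h, 1 chemokine gene was called lower with I3C, namely Ccl6 (−0.36, SE 0.08, adjusted p = 0.00812), which differed by −0.26 against DMSO. In 14 further lists, the fit over all 64 libraries called no member. These lists included sterol synthesis, the amino acid response, chaperones, glycolysis, cell cycle and p53 targets. Their medians lay between −0.01 and 0.15 at 3 h and between −0.02 and 0.09 at 20 h. The fit of the 8 libraries at 20 h alone did call members. Higher were 2 of 8 metallothionein and zinc transport genes (25%), 3 of 24 NF-kB feedback genes (12.5%) and 2 of 19 p53 targets (10.5%). Lower were 3 of 28 glycolysis genes (10.7%), 3 of 25 matrix and adhesion genes (12%) and 1 NF-kB feedback gene. Sterol synthesis, cholesterol efflux, the amino acid response and the lysosome held 1 or 2 higher members.

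BaP, the other ligand, was given to Ahr-/- BMMs of the same mice at 1 µM, a lower dose than that of I3C, so that the values stand side by side without a comparison of the compounds as such. BaP and I3C groups share the DMSO libraries. With BaP against DMSO, 6 genes (0.0413%) were called at 3 h and 4 (0.0275%) at 20 h, all lower. None of the 66 genes was called with BaP at 20 h, and their median was −0.04. The 20 genes of 3 h had a median of −0.19 with BaP and none was called. In the direct fit of I3C against BaP libraries, 7 genes (0.0482%) were called at 3 h, all lower with I3C, and 729 had an unadjusted p below 0.05. At 20 h it was 62 genes (0.426%), of which 61 (0.42%) were lower. The exception, Gm5510, was at 0.760, 1.01, 0.883 and 0.736 CPM with DMSO and at 1.29, 1.13, 1.06 and 1.09 CPM with I3C at 20 h, and differed by −1.08 with BaP against DMSO. All 66 genes were lower with I3C than with BaP at 20 h and 44 of them were called. The 66 were chosen with the same I3C libraries, so these lower values are in part given by the choice.

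**Figure D4:**
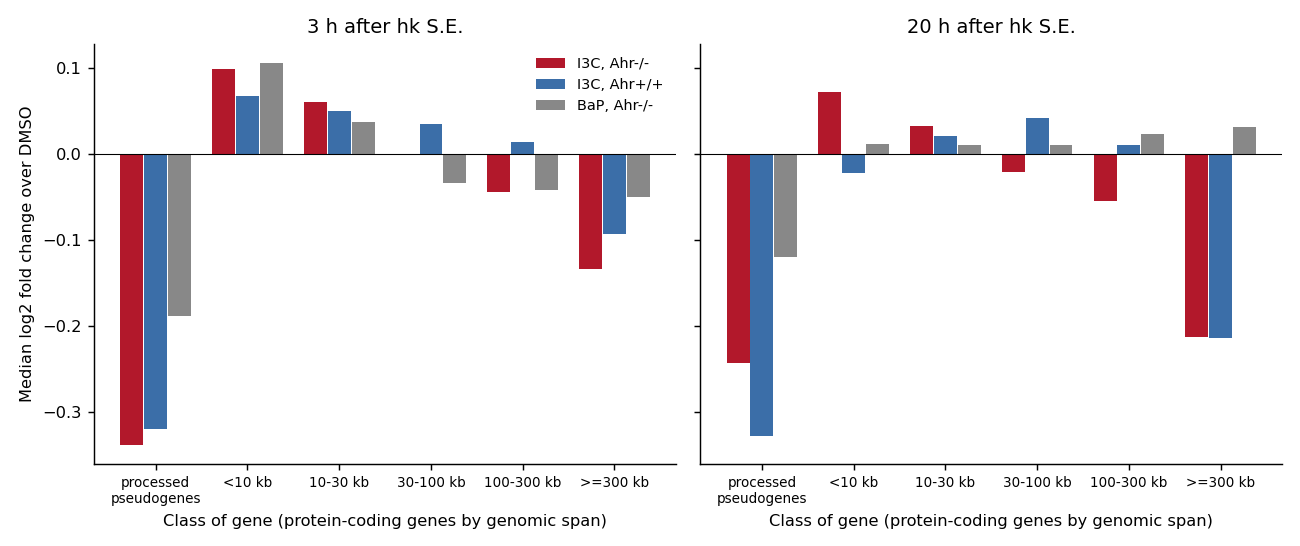
Median log2 fold change against DMSO at 3 h and 20 h p.a. for protein-coding genes by genomic span and for processed pseudogenes, with I3C in Ahr-/- BMMs, with I3C in Ahr+/+ BMMs and with BaP in Ahr-/- BMMs. With I3C the longest genes and the pseudogenes lie lowest in both genotypes, whereas with BaP in Ahr-/- BMMs the genes of at least 300 kb are at −0.05 and 0.03.

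The processed pseudogenes had medians of −0.32 and −0.33 with I3C in Ahr+/+ BMMs and of −0.19 and −0.12 with BaP in Ahr-/- BMMs. The genes of at least 300 kb had medians of −0.09 and −0.21 with I3C in Ahr+/+ BMMs. Whether long genes and pseudogenes differed in time course was not tested. The 29 long genes called at 20 h had medians of −0.31 at 3 h and −0.97 at 20 h in Ahr-/- BMMs, and the change between the times was negative in 29 of 29 genes, of which 20 had an unadjusted p below 0.05 and 1 was called. Since they were called at 20 h, their lower 20 h values are in part given by the choice. In Ahr+/+ BMMs, where they were not chosen, their medians were −0.28 and −1.20, with 0 and 22 called. The 36 pseudogenes called at 20 h had medians of −1.38 and −1.41, with a median change of −0.08 between the times and none called.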

How the data were processed

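RNA of 64 BMM cultures was sequenced as stranded, paired-end mRNA libraries on 1 flow cell. Per the labels and the study's methods, the authors used bcl2fastq 2.19.0.316, AdapterRemoval, HISAT2 2.1.0 (mm10, GENCODE M22) and htseq-count of HTSeq 0.9.1 (strict intersection, exons, reverse strand), so reads with several alignments are missing from the counts. The raw counts per gene that the authors deposited were used as they are. The deposited log2 values (variance-stabilised by DESeq2) served as an alternative only. The 5 entries naming no gene stayed out of library sizes. They hold the unassigned reads, and 75.2 to 79.6% of the reads of the libraries compared lay on genes.

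Genes passing filterByExpr (minimum count 10), 14537 of 55487, were fitted with edgeR 4.0.16 (R 4.3.3, TMM, quasi-likelihood) over all 64 libraries, which share 1 estimate of spread, with 16 group means and the mouse (replicate number within genotype) as a block. A gene was called at a Benjamini-Hochberg adjusted p below 0.01. That a replicate number stands for 1 mouse is an assumption. Same-numbered Ahr-/- libraries with I3C and DMSO deviated together within a time (r 0.252 to 0.396 at 3 h, 0.541 to 0.643 at 20 h). Of these, 8 of 8 correlated best with their own number, by small margins in replicate 3 (0.28 against 0.248 at 3 h, 0.603 against 0.573 at 20 h). Pairing between 3 h and 20 h was not tested. In simulated data, 93% and 92% of 2-fold and 99% and 100% of 4-fold changes were recovered at 3 h and 20 h, with 3 and 1 false calls among 14422 genes. The changed genes were drawn only from those with a mean of at least 1 CPM, and no difference between mice was simulated. Recovery in genes of lower level or with differences between mice was not tested. CPM use TMM library sizes. Positions and spans are from GENCODE M21. Parents are the best blastn match among whole transcripts of protein-coding genes, untranslated parts included. No other source of replication than the mouse is stated.

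Named are, per time, the 10 protein-coding and 3 other genes of largest change among called genes with the same sign in 4 of 4 mice, called list members, Ahr, Ahrr, Nqo1, Tiparp and Cyp1b1, and genes called in the difference tests. One gene that the rule names is not reported here. Wwox, Exoc4, Lrba, Smyd3, Pola1, Rab28, Gm5869, Gm10054, Gm16335, Rpl21-ps6, Gm5510, the parents, the NRF2 target genes and the inflammatory genes were named after their values were seen. The libraries and lists were chosen with earlier results of these data known. Alternatives used RLE and upper-quartile factors, other count filters, other blocks, fewer libraries, DESeq2 1.42.0 and limma 3.58.1.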

Additional observations from a re-analysis of the deposited data

Results flagged for a closer look

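In groups of 4 libraries, 6 of 196 had 1 library set apart by Dixon's criterion, where chance gives about 1 in 20. Without I3C at 3 h, replicate 2 was the low one for Prkca (0.366 CPM, others 1.10 to 1.34) and Diaph3 (6.09 CPM, others 10.4 to 11.2), and replicate 4 for Gm5510 (0.639 CPM, others 1.25 to 1.37). With I3C, Gclm in replicate 3 at 20 h (127 CPM, others 142 to 144) and Rab28 in replicate 2 at 3 h (19.7 CPM, others 22.3 to 22.5) were low. Smyd3 with DMSO at 20 h was high in replicate 1 (5.32 CPM, others 4.19 to 4.35).

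Differences between I3C effects that passed the test were −1.76 for Slc9a9 (20 h minus 3 h in Ahr-/- BMMs) and, for Ahr-/- minus Ahr+/+ BMMs at 20 h, −1.99 for Mmp8, −1.64 for Ahrr, −0.94 for Acpp and −2.51 for Serpinb2. Serpinb2 reads came from 2 of the 4 Ahr-/- mice.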

How the results depend on the processing

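The counts depended on the design more than on the scaling. With RLE or upper-quartile factors, a minimum count of 50 or the identifier series as a covariate, I3C against DMSO in Ahr-/- BMMs called 20 to 22 genes at 3 h and 61 to 65 at 20 h. Without the replicate block the counts were 3 and 30. Blocking by genotype and time together made them 33 and 82, over the 32 Ahr-/- libraries 9 and 38, and over the libraries of the groups compared 127 and 479. DESeq2 gave 40 and 89 over all libraries and 31 and 39 over the groups compared without the block, and limma on the log2 values gave 31 and 37. No filter on low counts gave 77 and 107, and an adjusted p below 0.05 gave 58 and 115. Leaving out 1 library gave 5 (without I3C replicate 1) to 38 (without DMSO replicate 1) genes at 3 h, with 7, 9, 12 and 11 without DMSO replicate 2, I3C replicate 2, DMSO replicate 3 and DMSO replicate 4. At 20 h it gave 32 (without I3C replicate 3) to 57 (without DMSO replicate 3), with 33, 35, 38 and 38 without I3C replicates 4 and 2 and DMSO replicates 2 and 4.

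I3C against BaP called 7 and 62 genes, 3 and 27 without the block, 21 and 76 with the block within time, 5 and 40 over the Ahr-/- libraries, 21 and 23 over the groups compared, 20 and 81 by DESeq2, 15 and 22 by DESeq2 over the groups compared, 18 and 34 by limma, 26 and 85 without a filter and 19 and 96 at an adjusted p below 0.05. Leaving out 1 library gave 3 (without I3C replicate 1 or 2 or BaP replicate 3) to 9 genes at 3 h and 36 (without I3C replicate 3 or 4) to 56 at 20 h. The change from 3 h to 20 h had 0 genes without the block, over the Ahr-/- libraries, over the groups compared, by DESeq2 there and by limma, 2 with the block within time and 3 without a filter. Leaving out 1 library gave 0 (without DMSO replicate 1 or I3C replicate 2 or 4 at 20 h) to 1. The genotype difference at 20 h had 0 genes without the block, 8 with the block within time, 45 over the groups compared, 7 without a filter and 7 at an adjusted p below 0.05, and 2 (without Ahr-/- DMSO replicate 1, 2 or 4) to 5 with 1 library left out. At 3 h it had 0 throughout. The cause of these shifts was not tested.

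Of the values of single named genes under the alternatives, 2387 kept their side of the threshold, 31 passed it in addition and 232 no longer passed it. Reversals were counted by a rule that also uses the unadjusted p (0.32), and 0 were counted. Values that were not called did change sign in places, such as Ahrr at 3 h (−0.29 to 0.71) and Nqo1 at 20 h (−0.06 to 0.24) in Ahr-/- BMMs. Over 12 alternatives the median of all genes moved between −0.0072 and 0.0222 at 3 h and between −0.0155 and 0.0006 at 20 h. The median of processed pseudogenes lay between −0.38 and −0.04 at 3 h and −0.26 and −0.02 at 20 h, that of genes of at least 300 kb between −0.17 and −0.04 and between −0.24 and −0.10, and that of NRF2 target genes between 0.16 and 0.21 and between 0.16 and 0.19.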
